A study of Mus musculus with 10 samples.

Results

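The BCL2 family decides at the mitochondrial outer membrane whether a cell survives, and 10 of its genes are described here in mouse haematopoietic stem cells (HSCs). They were taken by name from the 52096 genes of the deposited expression table, not by their values. The pro-survival side held Bcl2, Bcl2l1, Bcl2l2, Mcl1 and Bcl2a1b, and the pro-death side held Bak1, Bcl2l11, Bid, Bad and Pmaip1. All 10 passed the filter on low values, as did 13041 genes in all. Pmaip1 (Noxa) is itself a known p53 target, so the set is not free of p53 targets.

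RNA was sequenced from 2 groups of 5 libraries, which share 1 floxed Nup214 allele beside a wild-type one. HET libraries came from mice of genotype Nup214fl/+,Tie2-cre, in which Cre is driven by the Tie2 promoter, active in endothelial and blood-forming cells. FL libraries came from Nup214fl/+ mice, which carry the floxed allele without Cre. No group carried Cre alone, so the loss of 1 Nup214 allele and the presence of Cre cannot be told apart. The cells were sorted from bone marrow as CD48-negative, CD150-positive LSK cells, that is, lineage-negative cells with Sca-1 and Kit. The labels do not state the age of the mice. Nothing in the labels says that the libraries came from separate mice, so the p-values measure the spread between libraries, which may be technical. Nup214 encodes a protein of the nuclear pore that faces the cytoplasm, and the comparison asks how HSC transcripts differ when 1 copy of it is targeted.

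Pro-survival BCL2 proteins hold their pro-death relatives in check by gripping a short helix of these, the BH3 domain. BAK and its relative BAX are the effectors, which form pores in the outer mitochondrial membrane and let cytochrome c out. BH3-only proteins such as BIM (Bcl2l11), BID, BAD and NOXA (Pmaip1) relay stress signals by occupying the groove of pro-survival proteins or by activating the effectors. HSCs are known to depend on MCL1 for survival, and BCL2 protects them when it is overexpressed in mice.

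The coding stretches of the BH3 core are shown for 4 pro-death members because they encode the helix that pro-survival proteins bind. The pattern searched in frame was a leucine codon, 3 further codons, a glycine or serine codon and an aspartate codon, on the coding strand only. The longest coding transcript of each gene in GENCODE M21 (build GRCm38, also called mm10) was used. Capitals mark the 18 bases of the match, with 21 bases on either side.
Bak1: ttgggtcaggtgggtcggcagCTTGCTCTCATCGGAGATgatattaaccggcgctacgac
Bcl2l11: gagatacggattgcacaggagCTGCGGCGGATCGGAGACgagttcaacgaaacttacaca
Bid: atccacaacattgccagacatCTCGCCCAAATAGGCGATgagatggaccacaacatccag
Bad: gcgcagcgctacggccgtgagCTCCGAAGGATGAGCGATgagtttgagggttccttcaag

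The match begins at coding base 226 of Bak1, 448 of Bcl2l11, 268 of Bid and 451 of Bad. Bcl2, Bcl2l1 and Mcl1 each held 1 match as well, Bcl2l2 and Bcl2a1b held 0, and Pmaip1 held 2. Among all protein-coding genes 25.9% held at least 1 match, and among the 8274 with a coding sequence of 300 to 1000 bases, the range of the members, 13.5% did.

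Bcl2a1b, a mouse copy of the gene for the pro-survival protein A1, needs its sequence shown for another reason, since its copies are nearly identical. The first 60 coding bases of the 3 copies of equal length are given below, with capitals at the positions where they differ.
Bcl2a1b: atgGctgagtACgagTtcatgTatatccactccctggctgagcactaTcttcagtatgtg
Bcl2a1a: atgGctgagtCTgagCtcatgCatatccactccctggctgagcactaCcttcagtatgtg
Bcl2a1d: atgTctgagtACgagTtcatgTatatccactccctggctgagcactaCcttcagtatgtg

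This stretch holds 6 of the 12 positions that vary among the 516 coding bases. Over the whole coding sequence Bcl2a1a was 97.9% identical to Bcl2a1b and Bcl2a1d was 98.8% identical. Of all 50-base words of the Bcl2a1b transcript, 79.2% also occur in Bcl2a1a, Bcl2a1c, Bcl2a1d or Gm29094, a gene listed at 0 in all 10 libraries. No source used here says how shared reads were assigned, so the split between the copies is uncertain.

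Levels are given as FPKM, that is, fragments scaled to transcript length and to the mapped fragments of a library. Sums over all genes ran from 896054 to 1066190 per library. The smallest steps in the table, which reflect what 1 fragment is worth, ran from 0.045 to 0.105 FPKM times kilobase, with the largest step in HET 3. Read totals were not used here, so depth is known only in this relative sense. Nup214, the targeted gene, lies on chromosome 2 from 31974436 to 32053975. It held 31.2, 9.74, 17.4, 16.3 and 9.13 FPKM in HET libraries 1 to 5, against 65.8, 55.3, 52.2, 43.9 and 30 FPKM in FL libraries 1 to 5. The library labelled HET 1 was the highest HET library and lay above the library labelled FL 5, the lowest FL library. The Nup214 fold change, on the log2(FPKM + 1) scale, was -1.59 (SE 0.31, limma adjusted p = 0.472), and -2.003 (adjusted p = 1.57e-04) without these 2 libraries. Both stood apart across the table as well: HET 1 was the highest HET library for 71.2% of tested genes, FL 5 was the lowest FL library for 63.5%, and both held for 54.9%. Among the members, HET 1 was the highest HET library for 10 of 10 and FL 5 the lowest FL library for 7 of 10. Results below are therefore given with all 10 libraries and without these 2. The cause of their position was not tested, nor was an exchange of their labels. Every mean, fold change and p over 10 libraries takes the labels as given. The 2 libraries were left out because their values lie toward the other group, so SEs and p-values without them depend on that choice and are too small.

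No listed HSC marker was at 0 in every library, but neither was any listed marker of other cell types, so this does not identify the cells. Slamf1 averaged 3.97 FPKM in HET and 3.81 FPKM in FL. Fgd5, another listed HSC marker, was below the filter at 0.722 FPKM in HET and 0.508 FPKM in FL. The 10 HSC markers, among them Slamf1 (CD150), Procr, Mecom, Hlf and Kit, summed to between 223 and 448 FPKM in HET libraries and between 212 and 349 FPKM in FL libraries. Cd48, whose protein is absent from the sorted cells' surface, still averaged 84.7 ± 22.6 FPKM in HET and 85.1 ± 11.2 FPKM in FL (SD, n = 5 each). The 7 markers of CD48-positive progenitors and early myeloid cells summed to far more, 12913 to 22617 FPKM in HET libraries and 12352 to 18150 FPKM in FL libraries. Mpo, a myeloid granule gene, averaged 9573 FPKM in HET and 8250 FPKM in FL among them.

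No member passed the test between HET and FL with all 10 libraries. The test was limma on log2(FPKM + 1) with Benjamini-Hochberg adjustment over the 13041 genes at 0.05, and fold changes are on that log2 scale, which understates those of low genes. It called 0 genes in all (0%). Unadjusted, 1355 genes (10.4%) had a p under 0.05, 1167 of them lower in HET (8.95%), and 1 of the 10 members, Bak1, was among the lower ones. All 10 members had a fold change below 0, as did 77.3% of tested genes, and the median fold change of all tested genes was -0.17. No member had groups that did not overlap, against 0.506% of tested genes.

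**Figure D1:**
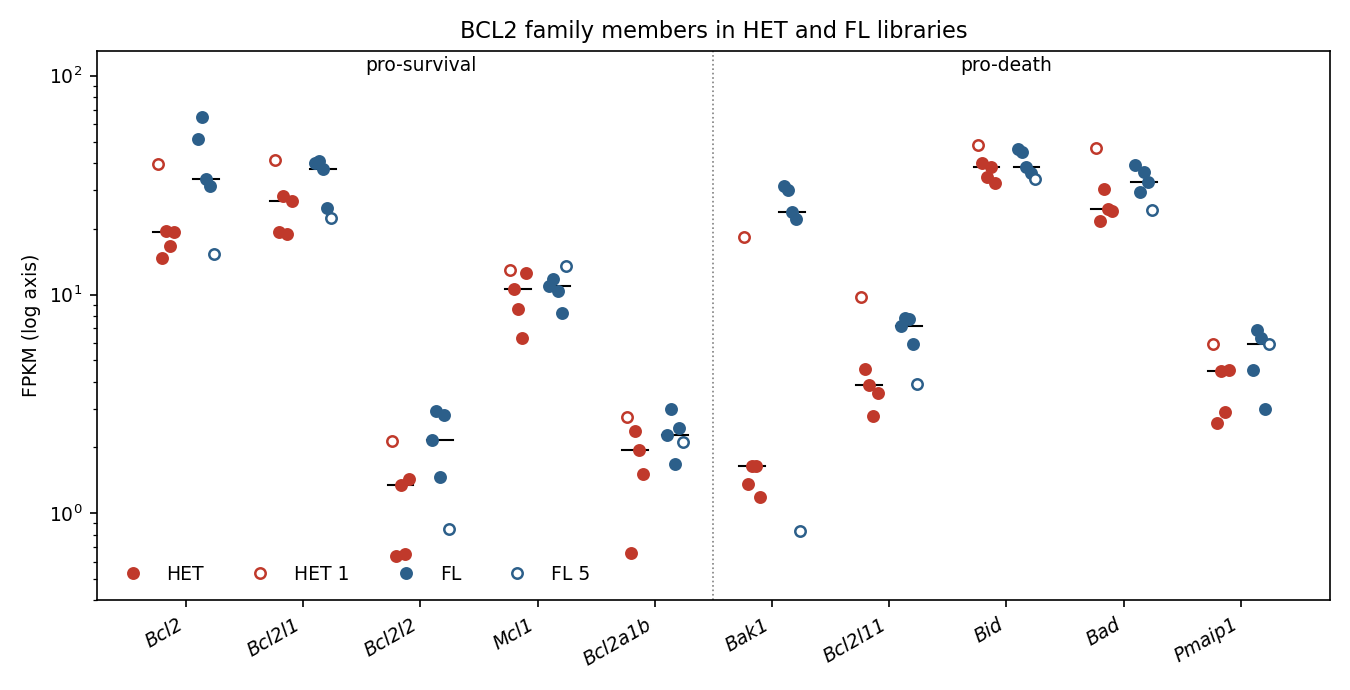
FPKM of each of the 10 members (x axis) on a log y axis, HET libraries at the left and FL libraries at the right of each gene, 1 point per library. Open circles are HET 1 and FL 5. The 4 other HET libraries of Bak1 sit between 1.19 and 1.64 FPKM and the 4 other FL libraries between 22.1 and 31.3 FPKM, while the HET and FL points of Mcl1 and Bid intermix.

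Bak1 had the largest fold change of the 10. It encodes BAK, the effector that sits in the outer mitochondrial membrane, and lies on chromosome 17 from 27019810 to 27029009, minus strand. HET libraries 1 to 5 held 18.4, 1.36, 1.64, 1.64 and 1.19 FPKM, and FL libraries 1 to 5 held 31.3, 30.2, 23.9, 22.1 and 0.83 FPKM. Each group thus had 4 libraries close together and 1 at the level of the other group. HET 1 was 11.2 times the highest other HET library, and the lowest other FL library was 26.7 times FL 5.

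The means of Bak1 were 4.84 ± 7.58 FPKM in HET and 21.7 ± 12.3 FPKM in FL (SD, n = 5 each). The fold change of -2.11 (SE 0.93) had an unadjusted p of 0.0483 and an adjusted p of 0.472 by limma, so the difference did not pass the test with all libraries. Without HET 1 and FL 5 the means were 1.46 ± 0.222 FPKM in HET and 26.9 ± 4.56 FPKM in FL (SD, n = 4 each), 18.4-fold lower in HET. The fold change was then -3.49 (SE 0.14), with a limma adjusted p of 1.906e-07 and rank 5 of all tested genes, in a fit that leaves out the libraries that go against the difference. Across the alternatives the adjusted p of Bak1 spanned 1.906e-07 to 0.863.

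That fit called 5954 genes (45.7%), 5506 of them lower in HET (42.2%) and 448 higher (3.44%), so a call alone sets no member apart. The size of the split in Bak1 was rarer. In 49 genes (0.376%) HET 1 was at least 4 times every other HET library while every other FL library was at least 4 times FL 5, and Bak1 was the only one of them among the members. The rule was set with the values of Bak1 known, so this share describes the pattern and is no test of Bak1. Of the 16 tested genes within 500 kb on either side of Bak1, 0 met that rule. At a share of 0.376% so few genes would seldom hold any, so this count cannot decide whether the neighbourhood shares the split. Without HET 1 and FL 5, the FL means of these genes over their HET means lay between 0.678 and 2.24. Dusp1, Phf1 and Itpr3 were among these neighbours.

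Separate annotated entries named Ggnbp1 overlap 7.35% and 18.2% of the exonic bases of Bak1 on the opposite strand, and the labels name no strand marking. Values are given for only 1 of these entries, from 27017987 to 27037624. Ggnbp1 held 4.02, 1.36, 3.17, 2.21 and 2.34 FPKM in HET libraries 1 to 5, against 2.81, 7.16, 4.17, 3.60 and 2.33 FPKM in FL libraries 1 to 5. Its groups overlapped, and its FL values lay far below those of Bak1 in 4 of the 5 FL libraries. In HET 2 to HET 5 and in FL 5, where Bak1 was low, Ggnbp1 was at or above the level of Bak1. The part of shared reads in these low Bak1 values was not tested.

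**Figure D2:**
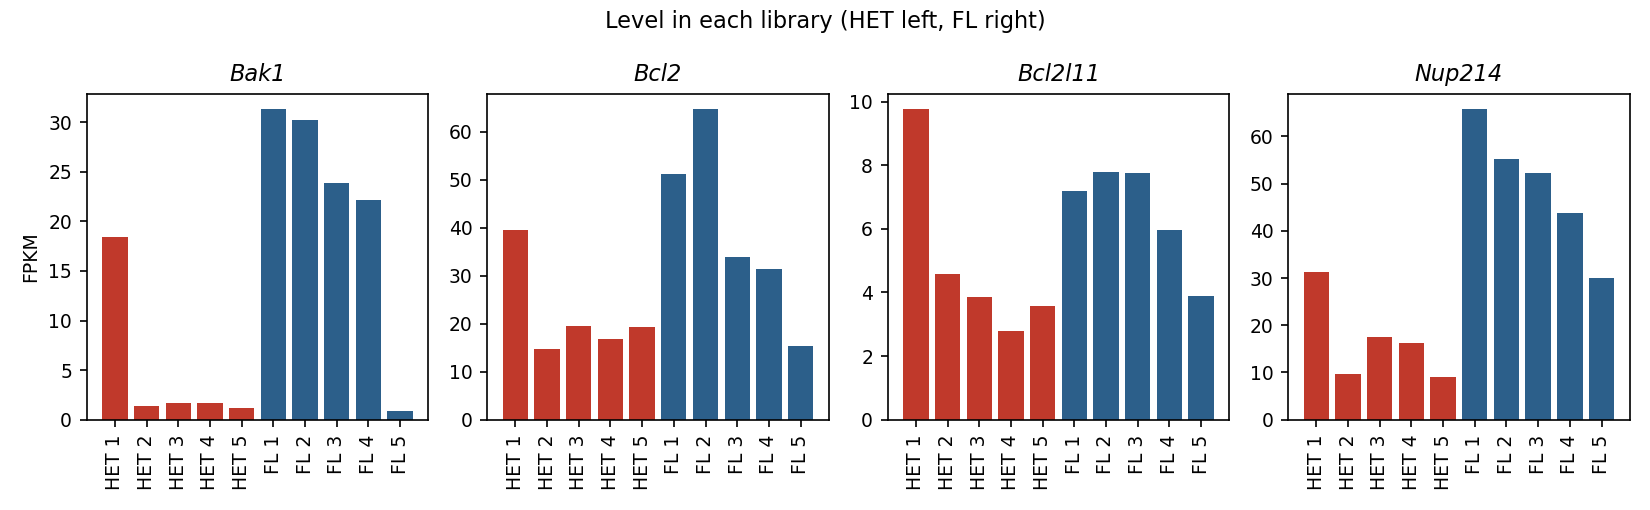
FPKM (y axes, from 0) of Bak1, Bcl2, Bcl2l11 and Nup214 in each library (x axes), with HET libraries left and FL libraries right. In Bak1 the bars of HET 1 (18.4 FPKM) and FL 5 (0.83 FPKM) stand at the level of the other group, and Nup214 shows HET 1 at 31.2 FPKM and FL 5 at 30 FPKM.

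BAX, the other effector, belongs to the wider family. Its transcript also had HET 1 as the highest HET library and FL 5 as the lowest FL library, as 54.9% of tested genes did. Bax held 81.04, 65.9, 71.3, 70.5 and 54.4 FPKM in HET libraries 1 to 5, against 80.9, 82.1, 94.2, 84.8 and 63.7 FPKM in FL libraries 1 to 5. HET 1 lay in the FL range and FL 5 in the range of the other HET libraries. Bax averaged 68.6 ± 9.67 FPKM in HET and 81.1 ± 11.05 FPKM in FL (SD, n = 5 each). Without HET 1 and FL 5 on median-ratio scaled columns its fold change was 0.01 (limma adjusted p = 0.962), against -3.18 for Bak1. The ratio of Bak1 to Bax was 0.227, 0.0206, 0.0230, 0.0233 and 0.0219 in HET libraries 1 to 5, against 0.388, 0.368, 0.254, 0.261 and 0.0130 in FL libraries 1 to 5. Bax was the more abundant effector transcript in every library, and this ratio does not depend on how a column is scaled.

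Among the BH3-only members, Bcl2l11 had the largest fold change. It encodes BIM, an activator that binds every major pro-survival protein, and lies on chromosome 2 from 128126038 to 128162547. Its levels were 9.77, 4.59, 3.85, 2.79 and 3.56 FPKM in HET libraries 1 to 5, against 7.18, 7.78, 7.75, 5.97 and 3.90 FPKM in FL libraries 1 to 5. HET 1 was above all FL libraries and FL 5 was within the range of the other HET libraries. Means were 4.91 ± 2.79 FPKM in HET and 6.52 ± 1.64 FPKM in FL (SD, n = 5 each), with a fold change of -0.42 (SE 0.27) and a limma adjusted p of 0.512. Leaving out HET 1 and FL 5 gave -0.81 (limma adjusted p = 0.00173). Without them on median-ratio scaled columns, which put the median gene near 0, it was -0.47 (adjusted p = 0.0351), and the adjusted p spanned 0.00173 to 0.863 across the alternatives.

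Bid encodes a BH3-only protein that is activated by cleavage, classically by caspase-8, and lies on chromosome 6 from 120891930 to 120916853, minus strand. It had the highest mean of the members in both groups. HET libraries 1 to 5 held 48.4, 39.8, 34.4, 38.1 and 32.4 FPKM, and FL libraries 1 to 5 held 46.1, 44.9, 38.2, 35.9 and 33.7 FPKM. The groups covered nearly the same range, with means of 38.6 ± 6.21 FPKM in HET and 39.8 ± 5.48 FPKM in FL (SD, n = 5 each). The fold change was -0.04 (SE 0.14, limma adjusted p = 0.877), and its sign changed on scaled columns, where it was 0.17. Part of Bid, 17.7% of its exonic bases, overlaps Bcl2l13 on the opposite strand.

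Bad encodes a BH3-only protein kept inactive by phosphorylation and 14-3-3 binding, and lies on chromosome 19 from 6941861 to 6951899. Bad stood at 46.7, 21.7, 30.4, 24.7 and 24.2 FPKM in HET libraries 1 to 5, against 39.1, 29.3, 36.4, 32.6 and 24.4 FPKM in FL libraries 1 to 5. HET 1 was the highest of all 10 libraries. Means were 29.5 ± 10.1 FPKM in HET and 32.4 ± 5.81 FPKM in FL (SD, n = 5 each), and the fold change was -0.16 (SE 0.20, limma adjusted p = 0.688). With both libraries left out it was -0.43 (adjusted p = 0.0168), and on scaled columns -0.04 (adjusted p = 0.865). Gpr137 on the opposite strand overlaps 20.5% of the exonic bases of Bad.

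Pmaip1, whose protein NOXA binds MCL1 and promotes its degradation, was low. It held 5.94, 2.59, 4.46, 2.89 and 4.54 FPKM in HET libraries 1 to 5, against 4.5, 6.89, 6.34, 3 and 5.92 FPKM in FL libraries 1 to 5. Both groups spread over a similar range, with means of 4.08 ± 1.37 FPKM in HET and 5.33 ± 1.58 FPKM in FL (SD, n = 5 each). The fold change was -0.32 (SE 0.24, limma adjusted p = 0.538), and without HET 1 and FL 5 it was -0.40 (adjusted p = 0.179).

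On the pro-survival side Bcl2 had the largest fold change. It is the founding member of the family and lies on chromosome 1 from 106538178 to 106714274, minus strand. HET libraries 1 to 5 held 39.5, 14.6, 19.5, 16.7 and 19.3 FPKM, and FL libraries 1 to 5 held 51.1, 64.7, 33.9, 31.4 and 15.25 FPKM. Again HET 1 stood within the FL range and FL 5 within the range of the other HET libraries, so the groups overlapped only through these 2. Means were 21.9 ± 10 FPKM in HET and 39.3 ± 19.1 FPKM in FL (SD, n = 5 each), with a fold change of -0.75 (SE 0.37), an unadjusted p of 0.0641 and a limma adjusted p of 0.472.

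Without HET 1 and FL 5, Bcl2 averaged 17.5 ± 2.32 FPKM in HET and 45.3 ± 15.7 FPKM in FL (SD, n = 4 each). The fold change was -1.27 (limma adjusted p = 0.00195), and -0.88 (adjusted p = 0.00429) on scaled columns. Its adjusted p spanned 0.00195 to 0.863 across the alternatives. Bcl2 was below Bcl2l1 in 5 of 5 HET libraries and above it in 3 of 5 FL libraries. The antisense gene D630008O14Rik overlaps 6.09% of the exonic bases of Bcl2. D630008O14Rik itself was low, and its groups did not overlap, at 1.11 to 1.37 FPKM in HET and 1.51 to 2.63 FPKM in FL.

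Bcl2l1, which encodes BCL-XL, is known for its part in erythroid and platelet survival and lies on chromosome 2 from 152780668 to 152831728, minus strand. Values were 41.0, 19.4, 28.3, 18.9 and 26.7 FPKM in HET libraries 1 to 5, against 39.8, 40.7, 37.3, 24.8 and 22.4 FPKM in FL libraries 1 to 5. The highest library was HET 1 and the next was FL 2. Means were 26.9 ± 8.95 FPKM in HET and 32.98 ± 8.73 FPKM in FL (SD, n = 5 each), and the fold change was -0.30 (SE 0.24, limma adjusted p = 0.556). Leaving out HET 1 and FL 5 gave -0.59 (adjusted p = 0.0251), and -0.20 (adjusted p = 0.326) on scaled columns.

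Mcl1, which encodes a short-lived pro-survival protein, lies on chromosome 3 from 95658788 to 95663176. HET libraries 1 to 5 held 12.9, 10.6, 8.57, 6.34 and 12.6 FPKM, and FL libraries 1 to 5 held 10.9, 11.8, 10.4, 8.25 and 13.4 FPKM. FL 5 was the highest FL library here, unlike for most members. Means were 10.2 ± 2.78 FPKM in HET and 10.95 ± 1.90 FPKM in FL (SD, n = 5 each), with a fold change of -0.12 (SE 0.20, limma adjusted p = 0.764). It stayed short of the threshold without HET 1 and FL 5, at -0.13 (adjusted p = 0.562), and its sign turned to 0.23 on scaled columns.

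Bcl2l2 (BCL-W) and Bcl2a1b (A1) were the lowest members in both groups. Bcl2l2, on chromosome 14 from 54883377 to 54888234, held 2.15, 0.64, 1.35, 0.65 and 1.43 FPKM in HET libraries 1 to 5, against 2.16, 2.93, 1.46, 2.81 and 0.85 FPKM in FL libraries 1 to 5. Its groups overlapped, with means of 1.24 ± 0.629 FPKM in HET and 2.04 ± 0.888 FPKM in FL (SD, n = 5 each) and a fold change of -0.43 (SE 0.26, limma adjusted p = 0.494). It was -0.73 (adjusted p = 0.0172) without HET 1 and FL 5, and -0.50 (adjusted p = 0.0876) on scaled columns. Gm20521, on the same strand, overlaps 13.3% of its exonic bases.

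Bcl2a1b, on chromosome 9 from 89199209 to 89207827, held 2.75, 0.66, 2.38, 1.95 and 1.51 FPKM in HET libraries 1 to 5, against 2.28, 2.99, 1.68, 2.45 and 2.11 FPKM in FL libraries 1 to 5. The ranges were close, with means of 1.85 ± 0.811 FPKM in HET and 2.30 ± 0.479 FPKM in FL (SD, n = 5 each). The fold change was -0.25 (SE 0.22, limma adjusted p = 0.584), and -0.39 (adjusted p = 0.180) without HET 1 and FL 5. Its copy Bcl2a1d averaged 0.770 FPKM in HET and 0.816 FPKM in FL, and Bcl2a1a averaged 0.304 FPKM in HET and 0.682 FPKM in FL. A1 is known to be prominent in neutrophils. The summed level of 12 neutrophil markers was 240 to 792 FPKM in HET libraries and 135 to 329 FPKM in FL libraries, all 11 tested markers having a fold change above 0 with 0 called. The part of these cells in the values of Bcl2a1b or Mcl1 was not tested, and in bulk RNA fewer cells of a type and less RNA per cell cannot be told apart.

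By level, HET means ran Bid, Bad, Bcl2l1, Bcl2, Mcl1, Bcl2l11, Bak1, Pmaip1, Bcl2a1b and Bcl2l2 from high to low. In FL the order was Bid, Bcl2, Bcl2l1, Bad, Bak1, Mcl1, Bcl2l11, Pmaip1, Bcl2a1b and Bcl2l2. Only Bcl2 over Mcl1 in HET, and Mcl1 over Bcl2l11 and Pmaip1 over Bcl2a1b in FL, were neighbours whose ranges over 5 libraries did not overlap.

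In the fit without HET 1 and FL 5, 6 of the 10 members were called, all lower in HET, where the background was 42.2%: Bcl2, Bcl2l1 and Bcl2l2 on the pro-survival side, and Bak1, Bcl2l11 and Bad on the pro-death side. On scaled columns without them 3 members were called, Bcl2, Bak1 and Bcl2l11, against 2594 genes (19.9%), of which 1489 were lower in HET (11.4%) and 1105 higher (8.47%). Groups of 4 did not overlap, HET lower, for 4 members, against 38.9% of tested genes. Scaling moved the median fold change of all tested genes, which was 0.02 on scaled columns and -0.17 as deposited with all libraries, and 0.02 and -0.33 without the 2. Sample quality weights, which set HET 1 and FL 5 at 0.149 and 0.236, called 7 members lower, against 6869 genes (52.7%), of which 47.8% of tested genes were lower. Leaving out FL 5 alone called Bak1 as the only member, against 3.14% of genes, 2.91% lower.

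**Figure D3:**
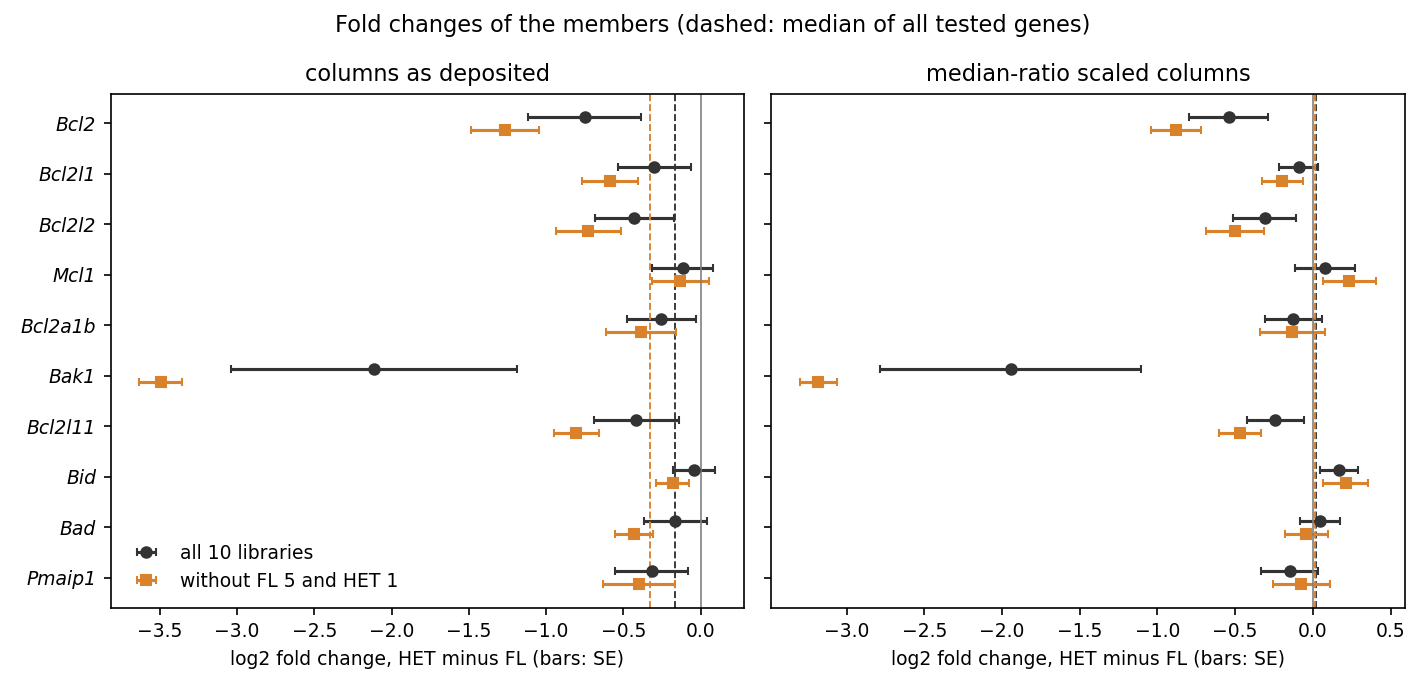
Fold change of each member (y axis) on the log2(FPKM + 1) scale, HET minus FL (x axes), with bars of 1 SE. The left panel uses the columns as deposited and the right panel median-ratio scaled columns. Circles use all 10 libraries, squares leave out FL 5 and HET 1, and dashed lines are the median of all tested genes in the same fit. Bak1 lies at -2.11 and -3.49 in the left panel, and Bid and Mcl1 lie above 0 in the right panel.

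The 2 sides were compared as sums of FPKM within each library, so that the ratio does not depend on column scaling. The 5 pro-survival members summed to 98.3, 45.95, 60.1, 44.6 and 61.6 FPKM in HET libraries 1 to 5, against 106, 123, 84.7, 69.7 and 54.0 FPKM in FL libraries 1 to 5. The 5 pro-death members summed to 129, 70.0, 74.7, 70.1 and 65.9 FPKM in HET libraries 1 to 5, against 128, 119, 113, 99.6 and 68.7 FPKM in FL libraries 1 to 5. On both sides HET 1 stood at the level of FL libraries and FL 5 at that of the other HET libraries.

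The ratio of pro-survival to pro-death was 0.761, 0.656, 0.804, 0.636 and 0.935 in HET libraries 1 to 5, against 0.829, 1.03, 0.752, 0.700 and 0.786 in FL libraries 1 to 5. The groups overlapped, with means of 0.758 ± 0.121 in HET and 0.820 ± 0.129 in FL (SD, n = 5 each). The mean log2 ratio differed by -0.11 between HET and FL, less than the pooled SD of 0.22 between libraries, so the ratio of sums differed by less than the spread. Without HET 1 and FL 5 the ratio averaged 0.758 ± 0.140 in HET and 0.829 ± 0.147 in FL (SD, n = 4 each), again with overlap. The sign of the difference depended on which members were counted and how they were weighted. It was 0.16 without Bid, the most abundant member, and 0.24 with each member weighted equally on the log2 scale. Under equal weights the sign rests on Bak1, whose fold change was -2.11. The other pro-death members lay between -0.42 and -0.04, and the pro-survival members between -0.75 and -0.12. For the ratio of sums the size of the difference depended on Bak1, without which it was -0.36.

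With equal weights, the mean log2(FPKM + 1) of the pro-survival members minus that of the pro-death members was -0.72, -0.42, -0.15, -0.33 and 0.00055 in HET libraries 1 to 5, against -0.68, -0.49, -0.91, -0.60 and -0.16 in FL libraries 1 to 5. The groups overlapped through HET 1 and FL 5. Without these 2 libraries the difference averaged -0.23 ± 0.19 in HET and -0.67 ± 0.18 in FL (SD, n = 4 each), and the groups did not overlap. Bak1 weighs heavily in this gap, with a fold change of -3.49 in the fit without these libraries. The other pro-death members lay between -0.81 and -0.18 there, and the pro-survival members between -1.27 and -0.13. The gap is therefore not a shift of the pro-death side as a whole. The 2 libraries were left out with their values known, and no test was made of this measure.

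Within each side, the shares of Bak1, Bcl2 and Bid overlapped between the groups with all 10 libraries. Bak1 made up 14.2% of the pro-death sum in HET 1 and 1.81% to 2.34% in the other HET libraries, against 21.2% to 25.4% in FL 1 to FL 4 and 1.21% in FL 5. Bcl2 made up 31.4% to 40.1% of the pro-survival sum in HET libraries and 28.2% to 52.6% in FL libraries. Bid and Bad together filled most of the pro-death sum in every library of both groups. Bid alone made up 37.5% to 56.8% in HET libraries and 33.9% to 49.0% in FL libraries. With no Bak1 and no Bcl2 in the sums, the ratio averaged 0.521 in HET and 0.573 in FL.

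**Figure D4:**
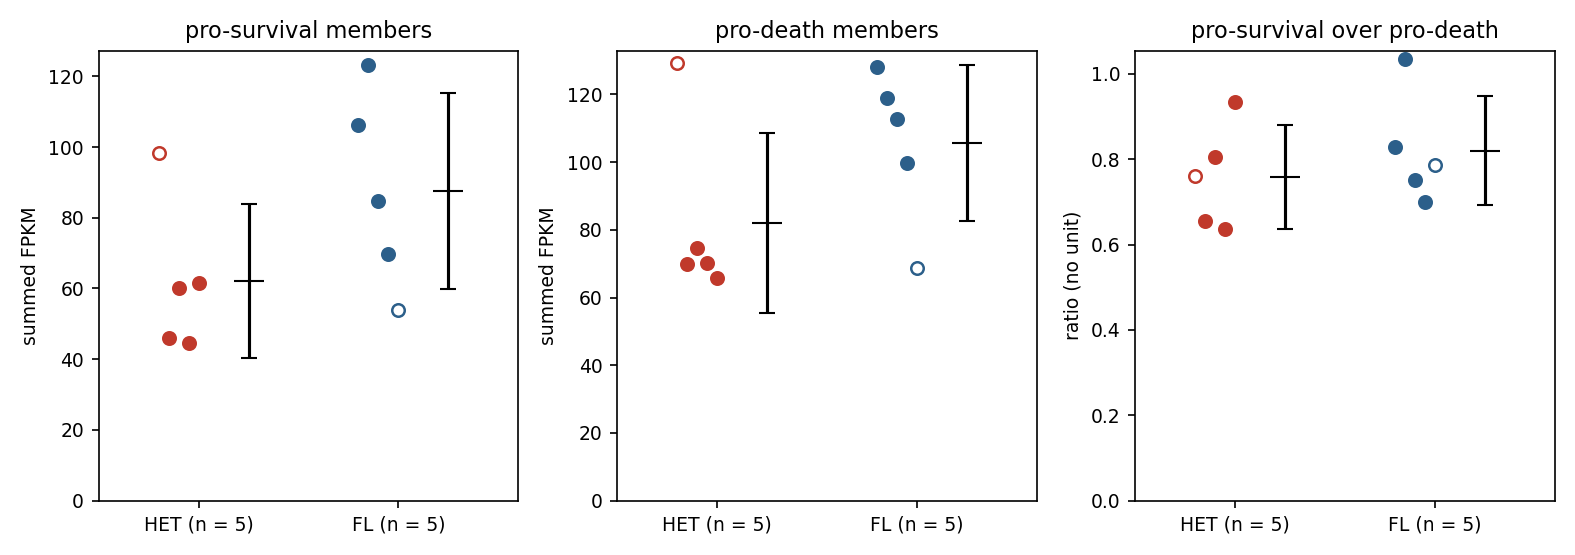
Summed FPKM of the 5 pro-survival members (left), of the 5 pro-death members (middle) and their ratio (right) in HET and FL libraries, 1 point per library, with mean and SD at the right of each group. Open circles are HET 1 and FL 5. The ratios overlap, with means of 0.758 in HET and 0.820 in FL.

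Single binding pairs were set side by side as ratios of their transcripts. Bcl2l1 over Bak1 was 2.23 in HET 1 and 11.6 to 22.5 in the other HET libraries, against 1.12 to 1.56 in FL 1 to FL 4 and 26.9 in FL 5. Mcl1 over Pmaip1 was 2.18, 4.11, 1.92, 2.19 and 2.77 in HET libraries 1 to 5, against 2.43, 1.71, 1.64, 2.75 and 2.27 in FL libraries 1 to 5. The ratio with Bak1 split as Bak1 itself did, and the ratio of Mcl1 to Pmaip1 overlapped between the groups.

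Among the wider family, 5 of 10 further multidomain genes and 3 of 6 further BH3-only and BNIP genes passed the filter, all with fold changes below 0 and 0 called with all libraries. Medians were -0.24 and -0.62, against -0.17 for all tested genes. Bbc3, which encodes the BH3-only protein PUMA, also had HET 1 as the highest HET library and FL 5 near the level of the other HET libraries. HET libraries 1 to 5 held 4.10, 1.49, 1.55, 0.73 and 1.53 FPKM, and FL libraries 1 to 5 held 10.7, 12.2, 9.21, 5.46 and 1.13 FPKM. Its fold change was -1.45 (SE 0.47, limma adjusted p = 0.472), and without HET 1 and FL 5 it was -2.13 (SE 0.23, adjusted p = 8.247e-05).

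Bnip3l, a mitophagy receptor, averaged 76.3 ± 22.1 FPKM in HET and 116 ± 31.9 FPKM in FL (SD, n = 5 each), with a fold change of -0.62. Its relative Bnip3 averaged 16.6 ± 7.82 FPKM in HET and 16.4 ± 2.43 FPKM in FL. Bmf, Bik and Hrk were below the filter, at means of 0.448, 0.440 and 0.062 FPKM in HET and 0.598, 0.634 and 0.104 FPKM in FL. Bax and Bcl2l12 were called lower in HET without HET 1 and FL 5 on deposited columns but not on scaled ones, and Bok and Bcl2l13 passed in neither.

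The partners and kinases of BH3-only proteins held 11 tested genes below 0 and 3 above, median -0.21. Pim1, a kinase that phosphorylates BAD, averaged 30.3 ± 7.76 FPKM in HET and 66.3 ± 23.8 FPKM in FL (SD, n = 5 each). With all 10 libraries its groups did not overlap, at 19.6 to 37.8 FPKM in HET and 44.9 to 99.7 FPKM in FL. HET 1 and FL 5 thus lay with their labelled groups, and 0.506% of tested genes had groups that did not overlap. Its fold change was -1.08, limma adjusted p 0.472. Foxo3, a transcription factor known to act on Bcl2l11, averaged 6.24 FPKM in HET and 9.60 FPKM in FL, with a fold change of -0.60. Dynll2, a dynein light chain that binds BMF, averaged 1.33 FPKM in HET and 3.54 FPKM in FL, and Ywhae, a 14-3-3 gene, averaged 202 FPKM in HET and 256 FPKM in FL. Of the 14, 8 were called lower and 2 higher without HET 1 and FL 5, against 42.2% and 3.44% of all tested genes. On scaled columns 3 were called lower and 3 higher, against 11.4% and 8.47%.

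Genes of MCL1 turnover had 8 tested members below 0 and 1 above, median -0.45. Gsk3a and Gsk3b, kinases that mark MCL1 for degradation, averaged 1.27 and 12.8 FPKM in HET and 2.65 and 20.6 FPKM in FL. Mapk3 averaged 6.22 FPKM in HET and 9.71 FPKM in FL, and March5, a mitochondrial ubiquitin ligase, averaged 14.4 FPKM in HET and 22.8 FPKM in FL. With all libraries 0 of 9 passed. Of these, 8 were called lower without HET 1 and FL 5, where 42.2% of all tested genes were, and 4 without them on scaled columns, where 11.4% were.

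Downstream of the mitochondrion, the 12 tested genes of the apoptosome and mitochondrial release were all below 0, median -0.19, and 0 passed. Endog, a mitochondrial nuclease, averaged 5.13 ± 1.80 FPKM in HET and 12.5 ± 6.44 FPKM in FL (SD, n = 5 each). Cycs, which encodes cytochrome c, averaged 107 ± 26.5 FPKM in HET and 135 ± 19.0 FPKM in FL. Diablo, which encodes an antagonist of the inhibitors of apoptosis, averaged 50.05 FPKM in HET and 57.6 FPKM in FL, and the channel gene Vdac3 averaged 158 FPKM in HET and 179 FPKM in FL. Executioner caspases and the nuclease list had 6 below 0 and 2 above, median -0.08. Parp1, a caspase substrate, averaged 83.2 ± 9.08 FPKM in HET and 70.6 ± 6.96 FPKM in FL. Casp6 averaged 18.3 FPKM in HET and 20.7 FPKM in FL, and Rock1, a kinase cleaved by caspases, averaged 7.19 FPKM in HET and 10.8 FPKM in FL. Inhibitors of apoptosis had 6 below 0 and 2 above, median -0.06, with Xiap at 3.88 FPKM in HET and 5.30 FPKM in FL. Birc6 averaged 27.6 FPKM in HET and 36.3 FPKM in FL, Birc5 121 FPKM in HET and 137 FPKM in FL, and Naip2 2.40 FPKM in HET and 2.01 FPKM in FL.

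In the fit without HET 1 and FL 5, 5 of the 12 release genes were called lower, the executioner list genes Rock1 and Casp6 lower and Parp1 higher, and 2 inhibitor genes, Birc6 and Xiap, lower, where 42.2% of all tested genes were lower and 3.44% higher. On scaled columns without them the medians of these 3 lists lay above 0, at 0.13, 0.14 and 0.14, so the direction of these lists as a whole depends on scaling. These lists were chosen with earlier results of the same libraries known, and nothing particular to a list follows from its count.

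**Figure D5:**
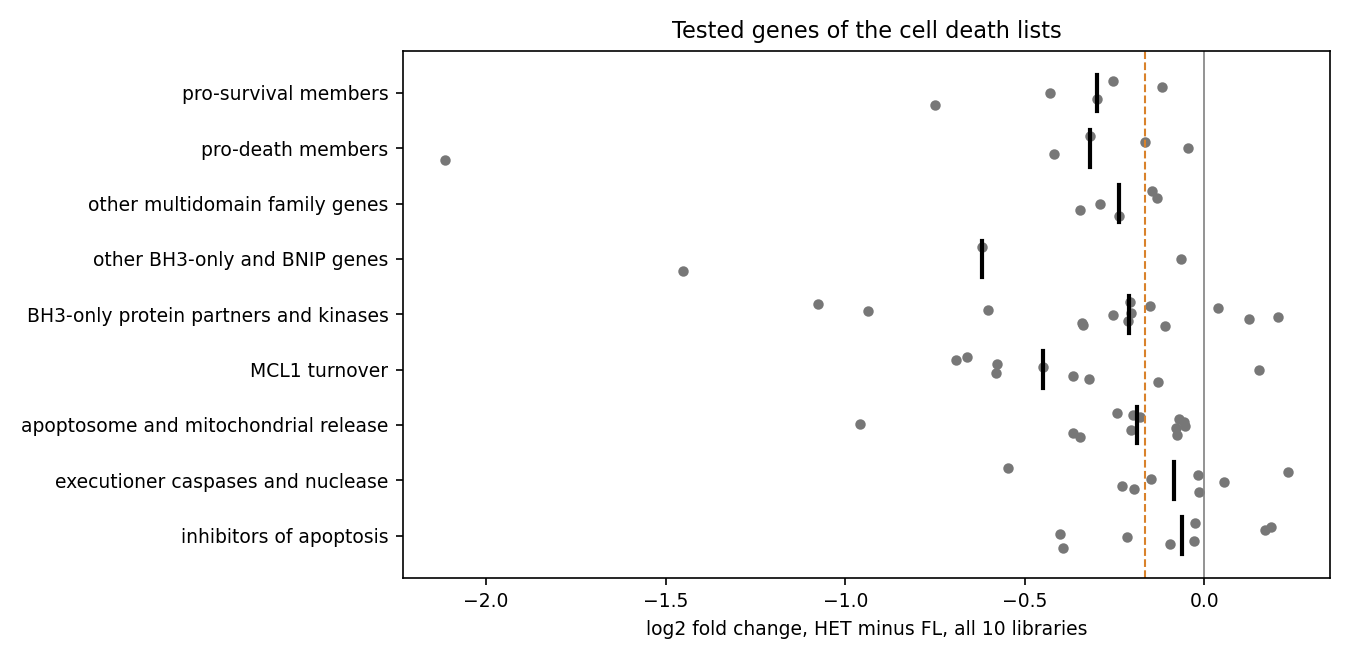
Fold change of each tested gene (x axis, log2(FPKM + 1) scale, HET minus FL, all 10 libraries) in the 2 sides of the BCL2 family and 7 further cell death lists (y axis), 1 point per gene. Black bars are list medians, from -0.62 to -0.06, and the dashed line is the median of all tested genes at -0.17. Bak1 lies at -2.11 and Bbc3 at -1.45.

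Markers of other cell types were measured beside these values. For monocyte and macrophage genes, 9 of 10 tested markers were below 0, and the summed level was 346 to 783 FPKM in HET libraries against 468 to 723 FPKM in FL libraries. B and plasma cell markers summed to 8153 to 102114 FPKM in HET libraries and 2701 to 11000 FPKM in FL libraries, with 7 of 8 tested markers above 0. No listed neutrophil, monocyte or B cell marker was at 0 in all libraries, and 0 were called with all libraries. Without HET 1 and FL 5, 3 of 11 neutrophil markers were called higher and 9 of 10 monocyte and macrophage markers lower, where 3.44% of all tested genes were higher and 42.2% lower. On scaled columns these counts were 6 of 11 higher and 1 of 10 lower, where 8.47% of tested genes were higher and 11.4% lower. Of the other lists, 8 of 8 erythroid and 7 of 7 megakaryocyte markers were below 0, as were 3 of 6 basophil and mast cell, 3 of 4 endothelial, 2 of 4 T and NK cell and 2 of 7 progenitor markers, 0 called. Of all tested genes, 77.3% were below 0. Medians were -0.241 for erythroid and -0.295 for megakaryocyte markers, against -0.166 for all tested genes. On scaled columns with all libraries they were -0.031 and -0.0855, against 0.02. The part of these cells in the members' values was not tested.

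The genes whose profile over the 10 libraries was most like that of Bcl2, by root mean squared difference of centred log2(FPKM + 1), were Rnf166 (0.118), Itpkb (0.128) and Pbrm1 (0.128), where the SD of Bcl2 itself was 0.702. For Bid they were Tcea1 (0.0515), Ogdh (0.0574) and Pigs (0.0601), with an SD of 0.186. For Bak1, added after its values were seen, they were Sf3a2 (0.220), Vat1 (0.298) and Gnb2 (0.304), with an SD of 1.75. Sf3a2 held 82.5, 8.83, 12.6, 7.96 and 8.04 FPKM in HET libraries 1 to 5, against 97.2, 96.6, 91.6, 79.4 and 6.03 FPKM in FL libraries 1 to 5. The comparison was over 10646 genes and describes likeness across 10 libraries, in which the positions of HET 1 and FL 5 are shared by many genes.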

How the data were processed

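Sequencing of HSC RNA from 5 HET and 5 FL libraries was deposited by the authors as FPKM per gene for 52096 Ensembl genes in 10 columns, per the file headers. Per the submitters' processing notes, the build was mm10. The same notes list Cufflinks 2.1.1, Bowtie 0.12.9, DESeq2 and HTSeq, without saying what each was used for. Per the labels' protocols, RNA was amplified by the Geo-seq method and libraries were made with a TruePrep kit, without a stated molecular identifier or strand marking. Amplification duplicates may therefore remain in the values. Total read counts were not used here, so no counting intervals are given.

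All identifiers matched GENCODE M21. Genes reaching FPKM 1 in 5 or more of the 10 libraries entered limma 3.58.1 (R 4.3.3) on log2(FPKM + 1), with intensity trend, robust empirical Bayes and genotype as the only term. Benjamini-Hochberg adjustment ran over all 13041 genes. Any pair of libraries shared at most 0.767% identical values among tested genes, so none was counted as a repeat. Summaries used numpy 2.4.6, pandas 2.3.3 and matplotlib 3.10.9 in Python 3.11.15.

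The members and lists were chosen with earlier results of these data known. Genes named outside the members were Nup214, all measured genes of lists of up to 6, otherwise the 4 tested genes with the smallest p, the 3 profiles nearest to the most abundant member of each side, and cell type markers. Copies and overlapping neighbours of members were named from the annotation. Dusp1, Phf1 and Itpr3, and the profiles nearest to Bak1, were named after the values were seen. A further gene chosen by this rule is left out. Alternatives changed the pseudocount (0.1 or 0.5), filter, scaling, shrinkage, weights, replicate block and libraries. Leaving out HET 1 and FL 5 on scaled columns was added after the data were seen, as were the ratios without Bak1. The rule of 4-fold splits was also set after the values of Bak1 were seen. Sequences came from GENCODE M21 transcripts. The sequence of Pmaip1 is not printed here.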

Additional observations from a re-analysis of the deposited data

Results flagged for a closer look

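In 4 of 26 groups of 5 values, 1 library lay far from the others, by a gap to its nearest neighbour over 0.71 of the group's range. Chance flags about 1 in 20 groups, and the 4 are not independent because they share HET 1. Bcl2 was 39.45 FPKM in HET 1 (gap 0.803 of the range), Bak1 was 18.39 FPKM (0.974), Bcl2l11 was 9.77 FPKM (0.742), and the summed pro-death members were 129.2 FPKM (0.86). HET 1 was highest in each. The cause was not tested.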

How the results depend on the processing

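With all 10 libraries, 0 genes, members and pathway genes were called as deposited. Of all genes, 1 was called on median-ratio scaled columns, 1 after quantile normalization, 6869 with sample quality weights, 0 to 409 with each library left out in turn, 5954 without HET 1 and FL 5, and 2594 without them on scaled columns. Of the 10 members the counts were 7 with weights, 0 to 1 with each library left out, 6 without HET 1 and FL 5, and 3 without them on scaled columns. Pathway genes called, lower and higher together, were 37, 0 to 5, 33 and 17 in the same order. They came from further cell death lists of 5, 3, 14, 9, 12, 8 and 8 tested genes. Of all tested genes, 52.7% were called with weights and 3.14% without FL 5 alone. The share was 45.7% without HET 1 and FL 5, and 19.9% without them on scaled columns. Nothing particular to these lists follows from the counts. The weights given to HET 1 and FL 5 were 0.149 and 0.236. Leaving out FL 5 alone gave the 409 and the 1 member, Bak1.

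Mcl1 turned to 0.078, 0.094 and 0.23 under median-ratio scaling, quantile normalization and scaling without HET 1 and FL 5, and ran from -0.21 to 0.026 with each library left out. Bid turned to 0.17, 0.13 and 0.21 and ran from -0.13 to 0.014. Bad turned to 0.045 and 0.041 under the first 2. The cause was not tested.

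The log2 pro-survival to pro-death difference of -0.11 moved to 0.16 without Bid, 0.24 with equal weights and -0.36 without Bak1, and ran from -0.19 to -0.03 with each library left out.

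Same-numbered libraries did not all deviate together: the correlations were 0.214, -0.172, -0.158, 0.23 and 0.146, and 3 of 5 HET libraries correlated best with their own number. A replicate block called 0 genes and 0 members, with 2434 genes at an unadjusted p under 0.05 and a smallest adjusted p of 0.0971. Depth is unknown in reads, which limits what can be said of low members.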
